A study of Mus musculus with 12 samples.

Results

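A set of 10 genes on mouse chromosome 13 that flank the let-7a-1, let-7f-1 and let-7d microRNA cluster were followed in newborn kidneys that lack this cluster. Zfp169, Ptpdc1, Barx1, Phf2, Fam120a, Wnk2, Ninj1, Susd3, Fgd3 and Bicd2 were taken by name from the count files for their position, and they make up 10 of the 24062 gene rows. RNA of whole kidneys at postnatal day 3 was sequenced in 12 libraries, 3 kidneys in each of 4 groups, each group from 2 litters, to ask which transcripts change when the Lin28/let-7 axis is perturbed. The let7KO mice carry a constitutive, whole-body deletion of let-7a1, let-7d and let-7f1 on a mixed CD1 and C57BL/6 background, and their controls are wild-type (WT) mice of the same mixed background. LIN28OE mice, on C57BL/6, carry a doxycycline-inducible human LIN28B transgene that is switched on in cells with Wt1-Cre activity, and their controls are WT mice on C57BL/6. The transgene was induced by a single short pulse before birth. The cluster is not targeted in LIN28OE mice, so these kidneys serve as a reference for the flanking genes. CD1 is an outbred stock. No source used here gives the genotype of the chromosome around the deleted allele, so the deletion itself and linked sequence carried along with it cannot be told apart in these kidneys.

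The let-7 microRNAs are short RNAs that pair through their seed with sites in target messenger RNAs and lower their level or translation. They accumulate as tissues mature, and the RNA-binding protein LIN28B blocks their maturation. A deletion can also act in cis, on neighbouring genes that share its chromosome, by removing regulatory sequence or by changing transcription through the locus, and a breeding scheme that selects for a deleted allele keeps the flanking stretch of the donor chromosome with it.

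The cluster lies at chr13:48536012-48538272 on the minus strand (GRCm38) and spans 2261 bases. Other let-7 genes, Mirlet7a-2 and Mirlet7f-2 among them, are not part of this deletion. The 3 mature microRNAs encoded by the cluster are shown to make plain their shared seed (bases 2 to 8, in capitals, sequences from RefSeq):
let-7d-5p: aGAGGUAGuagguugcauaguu
let-7f-5p: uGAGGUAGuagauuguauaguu
let-7a-5p: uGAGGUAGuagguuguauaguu
A transcript paired to this seed would hold CTACCTC, or TACCTCA where an A follows the match to bases 2 to 7. Neither motif was found on the sense strand of the longest annotated 3′ UTR of any of the 10 flanking genes, whose lengths ran from 515 to 3667 bases with a median of 1686. Of the 14055 tested genes with an annotated 3′ UTR, 18.2% held at least 1 of the motifs, with a median length of 1302 bases. The absence says only that these letters are not in these windows.

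Zfp169 (chr13:48487647-48513451) lies 22.6 kb from the cluster at lower coordinates, which is downstream of the hairpins in their direction of transcription, and it is the only one of the 10 on that side. The other 9 genes extend to higher coordinates, from Ptpdc1 at 39.6 kb (chr13:48577872-48625664) to Bicd2 at 803.3 kb (chr13:49341585-49387026). The minus strand carries 7 of the 10 genes, Zfp169 and Ptpdc1 among them, and the plus strand 3.

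**Figure D1:**
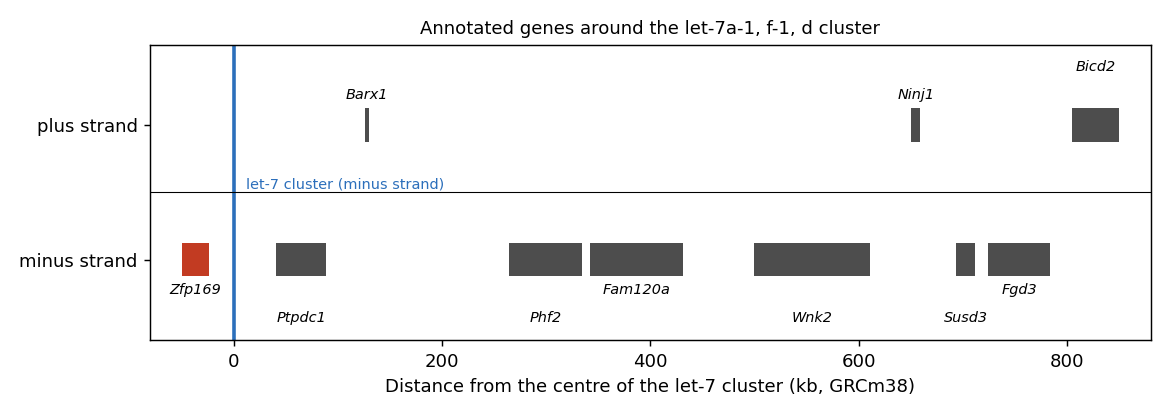
Position of the 10 flanking genes in kb from the centre of the let-7 cluster (vertical line), drawn to scale above or below the middle line by strand. Zfp169, in red, is the 1 gene to the left of the cluster, and the other 9 lie to its right.

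The libraries held between 39926235 and 61872736 counted reads, so that 3 counts were worth 0.0485 to 0.0751 CPM (counts scaled to library size), a limit that covers counting error only. The levels below are CPM with TMM normalization over all kidneys. All 11 kidney genes listed as tissue markers were detected in every kidney. The knockout was checked at the precursor row Mirlet7d, since long-RNA libraries do not capture mature microRNAs. Mirlet7d had 0 counts in all 3 let7KO libraries and 54 in their WT libraries together, which puts it at least 16.6-fold lower against a floor of 3 counts over the group. One WT library (mixed, replicate 1) was also at 0, so the row separates the groups only in part. The let-7 target Hmga2, whose 3′ UTR holds 4 copies of CTACCTC, stood at 12.3, 21.8 and 31.6 CPM in let7KO against 9.68, 7.72 and 10.5 CPM in WT (mixed), without overlap. In LIN28OE it stood at 207, 206 and 156 CPM against 12.4, 14.5 and 16.4 CPM.

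The flanking genes differed widely in level. In WT (mixed) kidneys, per kilobase of annotated exon, Ninj1 was highest at 104 ± 27.2 RPKM (SD, n = 3, CPM per kilobase). Susd3 (22.3 ± 5.93) and Fam120a (21.9 ± 2.59 RPKM) came next and did not differ beyond their spread, followed by Bicd2 at 8.18 ± 0.855 RPKM. Phf2 (4.91 ± 1.25) and Ptpdc1 (4.15 ± 2.33 RPKM) overlapped, as did Zfp169 (0.553 ± 0.154), Wnk2 (0.548 ± 0.127) and Fgd3 (0.299 ± 0.247 RPKM). Barx1 was at 0. In let7KO kidneys Zfp169 stood sixth in this order at 2.95 ± 1.40 RPKM, between Phf2 and Ptpdc1, where in both WT groups it stood seventh or eighth. The lengths are those of the reference annotation and may differ from the gene models that were counted.

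**Figure D2:**
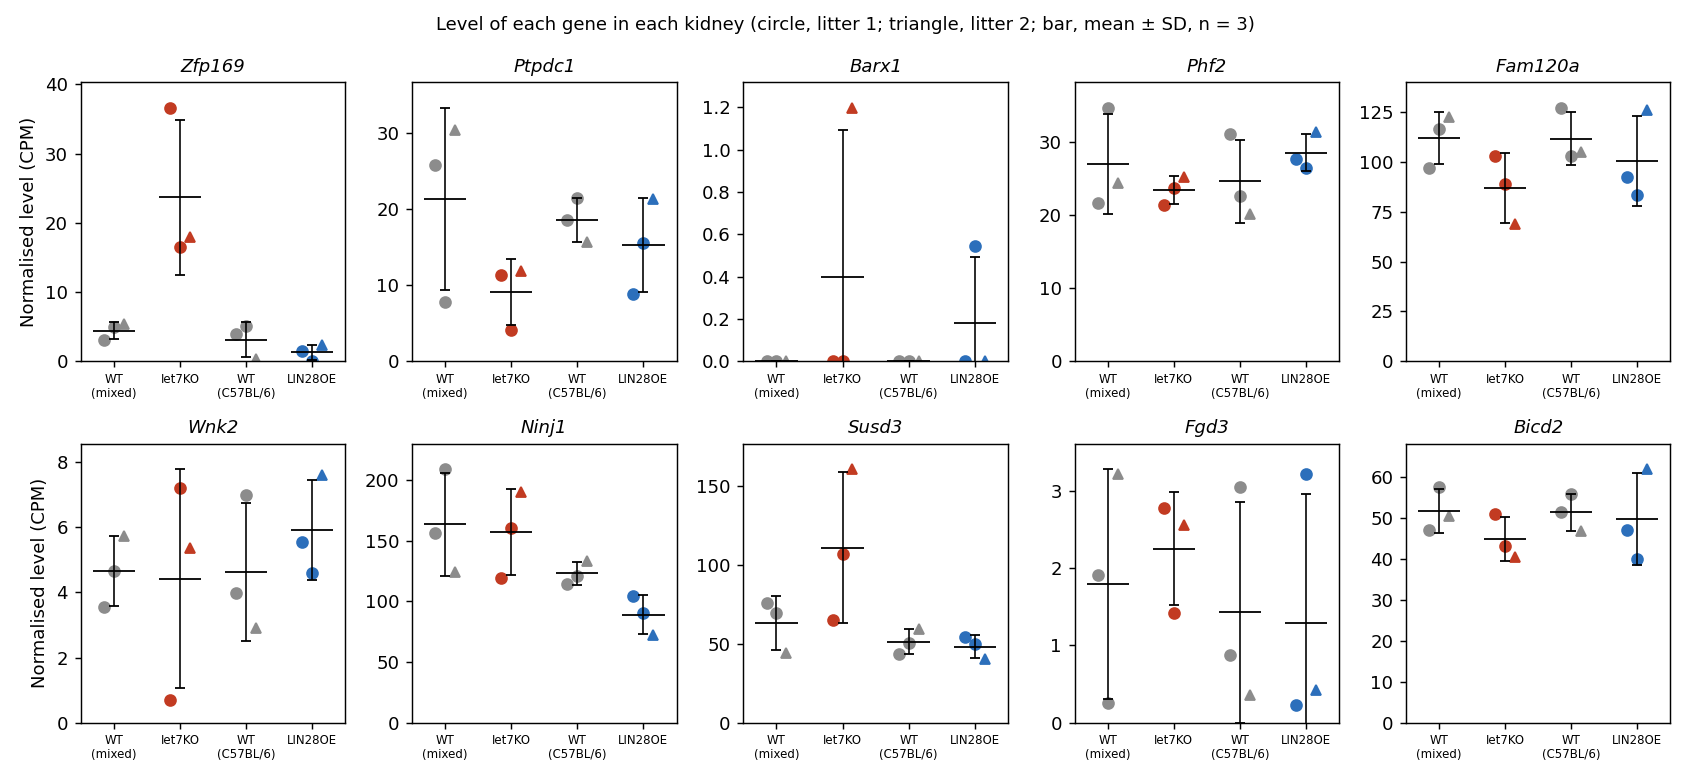
Normalised level (CPM, linear axes from 0) of each of the 10 flanking genes in each of the 12 kidneys, with circles for litter 1, triangles for litter 2 and bars for the mean ± SD (n = 3). For Zfp169 the 3 let7KO kidneys, from 16.5 to 36.6 CPM, lie above the other 9 kidneys, which reach at most 5.36 CPM.

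Loss of the cluster was accompanied by a higher level of Zfp169, which encodes a zinc finger protein. Zfp169 was measured at 36.6, 16.5 and 17.9 CPM in the let7KO kidneys and at 3.03, 4.90 and 5.36 CPM in their WT kidneys. Every let7KO kidney was above every WT kidney. In the first litter, with 2 kidneys of each group, the ratio of the means was 6.69. In the second litter, with 1 kidney of each group, the ratio was 3.34. The fold change was 5.31 (log2 fold change 2.41, SE 0.415, 95% interval 1.49 to 3.33) in edgeR's quasi-likelihood test. Zfp169 was number 12 by p among the 15500 genes tested, but with an adjusted p of 0.191 it did not pass the correction over all genes.

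Of the 9 flanking genes that could be tested in let7KO, Zfp169 was the only one with an unadjusted p below 0.01, the threshold used in the study, where 2.73% of all genes tested were called. The gene rose in all 6 fits that left out 1 kidney, by a log2 fold change of 1.92 to 2.62 and with p below 0.01 each time. In one fit of all 12 kidneys, which shares the spread of the LIN28OE groups, the log2 fold change was 2.42 but the unadjusted p was above 0.01 (adjusted p = 0.276), and the call was lost. At an adjusted p below 0.05, a threshold that 0.0194% of all genes passed, edgeR called 0 of the 9 flanking genes. At an unadjusted p below 0.05 it called 3, where 10.8% of all genes tested were called, and 2 with the litter number as a block. DESeq2 called 2 at p below 0.01, Zfp169 (unadjusted p = 9.25e-09) and Susd3, where it called 5.45% of all genes tested. It gave no adjusted p for 5 of the 9, Zfp169 among them, so the DESeq2 value of Zfp169 stands without a correction over all genes.

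Ptpdc1, the nearest gene on the other side, encodes a predicted protein tyrosine phosphatase. Its level was 11.3, 4.10 and 11.9 CPM in let7KO and 25.9, 7.79 and 30.4 CPM in WT (mixed). The groups overlapped, because replicate 2 of the WT kidneys lay below 2 of the let7KO kidneys. The let7KO mean was lower in the first litter. In the second litter the 1 let7KO kidney was below the 1 WT kidney. The log2 fold change of -1.24 (SE 0.534, 95% interval -2.43 to -0.06) missed the threshold of 0.01 (adjusted p = 0.435, edgeR's quasi-likelihood test). When each kidney was left out in turn it ran from -1.64 to -0.89. The unadjusted p passed below 0.01 without WT replicate 2 and rose above 0.05 without WT replicate 1, WT replicate 3 or let7KO replicate 2 (-1.08, -0.90 and -0.89).

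Susd3 encodes a membrane protein with a sushi domain. It was measured at 65.2, 107 and 161 CPM in let7KO and at 75.7, 69.7 and 44.0 CPM in WT (mixed). Of the 3 let7KO kidneys, replicates 2 and 3 were above all WT kidneys and replicate 1 was not, so the groups overlapped. The log2 fold change was 0.79 (SE 0.315, 95% interval 0.09 to 1.49), also short of the threshold (adjusted p = 0.411, edgeR's quasi-likelihood test). When each kidney was left out in turn it ran from 0.43 to 1.05. The unadjusted p passed below 0.01 without let7KO replicate 1 and rose above 0.05 without WT replicate 3, let7KO replicate 2 or let7KO replicate 3 (0.58, 0.82 and 0.43).

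The relation of level to transcript length differed between kidneys. The slope of a kidney's log2 level on log2 exon length, relative to the mean of all kidneys, was 0.0063, -0.0921 and -0.113 in let7KO and 0.0191, -0.0622 and 0.0872 in WT (mixed). With this slope as a covariate, the log2 fold change of Ptpdc1 was -0.39 (adjusted p = 0.909) and that of Susd3 0.19 (adjusted p = 0.893), while Zfp169 stood at 2.68 (adjusted p = 0.268) with an unadjusted p still below 0.01. Ninj1, with an exon length of 1570 bases against 5151 for Ptpdc1 and 8017 for Zfp169, went to -0.47 in that fit, with an unadjusted p below 0.01 (adjusted p = 0.534). With 3 kidneys per group such a covariate takes up part of the difference between the groups, and the part of RNA quality in these values was not tested.

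The remaining flanking genes showed smaller differences or differences within a wide spread in let7KO. Fam120a, which encodes an RNA-binding scaffold protein, was at 103, 88.9 and 68.7 CPM against 97.1, 116 and 122 CPM, with 2 of 3 let7KO kidneys below all WT kidneys (log2 fold change -0.38, SE 0.203, adjusted p = 0.538, edgeR's quasi-likelihood test). For Bicd2, a cargo adaptor of the dynein motor, the log2 fold change was -0.22 (SE 0.203), and levels ran from 40.4 to 50.8 CPM in let7KO and from 47.0 to 57.6 CPM in WT. Phf2, a histone demethylase with a PHD finger, also had a log2 fold change of -0.22 (SE 0.254), with all 3 let7KO kidneys between 21.4 and 25.3 CPM and WT kidneys from 21.7 to 34.8 CPM. Ninj1, a cell surface protein that takes part in membrane rupture during lytic cell death, differed by -0.08 (SE 0.233, 95% interval -0.60 to 0.44) on the log2 scale.

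Wnk2 and Fgd3 were counted at low and uneven levels, which leaves a wide range of fold changes possible. Wnk2, a kinase of the family that controls cation-chloride cotransport, was at 0.695, 7.21 and 5.38 CPM in let7KO and 3.56, 4.67 and 5.72 CPM in WT (mixed), so that let7KO held both the lowest and the highest kidney. Its 95% interval ran from -1.71 to 1.51 on the log2 scale. Fgd3, an exchange factor for the small GTPase Cdc42, ranged from 1.42 to 2.78 CPM in let7KO and from 0.257 to 3.22 CPM in WT, with a 95% interval of -1.80 to 2.43. Both intervals include 2-fold differences in either direction. Barx1, a homeobox gene of the developing stomach and jaw, had 43 counts in let7KO replicate 3, 29 in LIN28OE replicate 2 and 0 in the other 10 kidneys, and was too low to test.

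Among the 9 tested genes, 3 had a positive and 6 a negative log2 fold change in let7KO, with a median of -0.10, where all genes tested had a median of -0.02 and 48.0% were positive. Only Zfp169 separated let7KO from WT kidneys without overlap, 1 of 9, against 16.7% of all genes tested.

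**Figure D3:**
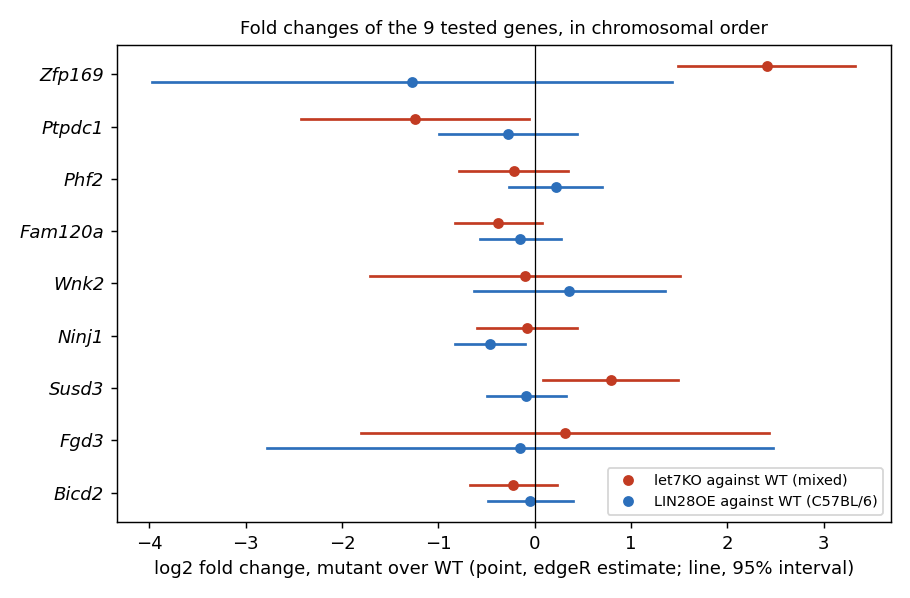
log2 fold change of the 9 tested flanking genes in let7KO (red) and LIN28OE (blue) kidneys, each against its own WT group, with the 95% interval from edgeR as a line. In let7KO the interval of Zfp169, from 1.49 to 3.33, lies farthest from 0, and in LIN28OE its interval spans 0.

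In LIN28OE kidneys, where the cluster is not targeted, Zfp169 was measured at 1.45, 0.0561 and 2.30 CPM, against 3.92, 5.09 and 0.286 CPM in WT (C57BL/6). These kidneys overlapped, and the lowest held 3 counts. The order of LIN28OE and WT was opposite in the 2 litters, the second of which had 1 kidney of each group. The log2 fold change was -1.27 (SE 1.20, 95% interval -3.97 to 1.43, adjusted p = 0.647). It was -0.25 with the exon length slope as a covariate, -0.74 with a Y-linked covariate and -2.03 to -0.70 when each kidney was left out, with an unadjusted p above 0.05 each time. Zfp169 was thus variable in these groups, with a coefficient of variation of 80.9% in WT (C57BL/6) and 89.3% in LIN28OE. It was 27.8% in WT (mixed) and 47.5% in let7KO. The lowest kidneys were WT (C57BL/6) replicate 3 with 15 counts and LIN28OE replicate 2 with 3 counts. Strain, litter and experiment cannot be told apart in this spread. Over the 3609 tested genes with a mean of 1 to 10 CPM, the median coefficient of variation was 29.6% in WT (C57BL/6), 42.8% in LIN28OE, 40.0% in WT (mixed) and 47.5% in let7KO. In let7KO itself Zfp169 had a mean of 23.7 CPM, above this range, so the let7KO values are not at like levels.

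None of the 9 flanking genes had p below 0.01 in LIN28OE by edgeR's quasi-likelihood test or by DESeq2, where edgeR called 7.33% and DESeq2 11% of all genes tested. At p below 0.05 each tool called 1 of the 9, and 18% and 20.1% of all genes. That gene was Ninj1, at 104, 90.4 and 72.0 CPM in LIN28OE and 115, 121 and 133 CPM in WT (C57BL/6). All 3 LIN28OE kidneys were below all WT kidneys, and the log2 fold change was -0.47 (SE 0.162, adjusted p = 0.169). It was the only one of the 9 to separate the groups, where 23.8% of all genes tested did. The exon length slopes were -0.032, -0.0332 and 0.0829 in LIN28OE and 0.0841, 0.054 and -0.0015 in WT (C57BL/6). With the slope as a covariate, Ninj1 stood at -0.61 with an adjusted p of 0.0155, in a fit where 1057 genes (6.69%) had an adjusted p below 0.05, against 194 without the covariate. When each kidney was left out it ran from -0.60 to -0.35, with an unadjusted p below 0.01 without LIN28OE replicate 1 and above 0.05 without WT replicate 3.

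Markers of kidney cell types were read in both comparisons. Of 6 cap mesenchyme markers, genes of the nephron progenitors, 5 rose in LIN28OE at p below 0.01 (summed level 355 to 517 CPM against 159 to 195 CPM), and of 6 proximal tubule markers 3 fell (934 to 1348 against 2312 to 2481 CPM). In let7KO the summed levels overlapped with WT, 150 to 158 against 110 to 187 CPM for the cap mesenchyme and 2336 to 3501 against 2837 to 3569 CPM for the proximal tubule, and 0 of 6 and 1 of 6 genes passed. The log2 fold change was positive for 5 of the 6 cap mesenchyme genes there (median 0.79), with Cited1 alone above all WT kidneys at 1.13, and negative for 5 of the 6 proximal tubule genes (median -0.28). Slc34a1, Cubn, Slc5a2 and Slc22a6 lay below all WT kidneys in every let7KO kidney, as did 1362 of all 15500 genes tested. Slc34a1 itself lies on chromosome 13, 6.86 Mb from the cluster. In whole kidneys, fewer cells of a type and less RNA per cell cannot be told apart, and the part of these markers in the levels of the flanking genes was not tested. Adipocyte markers, from 6.97 to 52.6 CPM in WT (C57BL/6) and from 0 to 7.04 CPM in LIN28OE, were at 0.182 to 3.69 CPM in let7KO and 0.312 to 1.49 CPM in its WT.

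The difference between the 2 models was tested as an interaction in one fit. For Zfp169 the let7KO effect exceeded the LIN28OE effect by 3.69 on the log2 scale (SE 1.30, 95% interval 0.91 to 6.48, adjusted p = 0.673). Susd3 followed with 0.90 (SE 0.400, adjusted p = 0.773). By edgeR's quasi-likelihood test 0 of 9 flanking genes had p below 0.01 in this comparison, where 1.55% of all 16598 genes tested were called. At p below 0.05 it called 2 of the 9 and 6.27% of all genes, and with the litter number as a block 0 of the 9. DESeq2 called 1 at p below 0.01, Zfp169 (adjusted p = 0.198), and 2.51% of all genes, and at p below 0.05 2 of the 9 and 7.29%. Leaving out WT (C57BL/6) replicate 3 or LIN28OE replicate 3 gave Zfp169 differences of 4.24 and 4.44 and brought its unadjusted p below 0.01, and leaving out let7KO replicate 1 did so for Susd3 at 1.17. Over all 12 kidneys left out in turn the Zfp169 difference ran from 3.14 to 4.44 and the Susd3 difference from 0.53 to 1.17, with the lowest Susd3 value without let7KO replicate 3.

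The 2 WT groups were set side by side as a reference for background. Zfp169 was 0.51 higher on the log2 scale in WT (mixed) than in WT (C57BL/6), with an SE of 0.798 and an adjusted p of 0.855. Ninj1 was 0.40 higher (SE 0.184, adjusted p = 0.403), and the other 7 lay between -0.0018 and 0.33. Of the 9 flanking genes, 0 had p below 0.01 or below 0.05 by edgeR's quasi-likelihood test, where 4.79% of all 15850 genes tested were called at 0.01 and 12.7% at 0.05. DESeq2 called 0 at 0.01 and 1 at 0.05, against 7.21% and 14.3% of all genes. Strain, litter and experiment cannot be told apart here, and these samples are also the controls of the main comparisons.

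Genes outside the flanking set were described by their distance from the cluster in let7KO. The set does not hold every gene near the cluster, since 8 other tested genes lay within 1 Mb. Of these 8, 0 had p below 0.01. Beside the 1 of 9 flanking genes with p below 0.01 (11.1%), 1 of 23 other tested genes within 2 Mb was called (4.35%), 8 of 107 at 2 to 10 Mb (7.48%), 21 of 449 on the rest of chromosome 13 (4.68%), and 392 of 14912 elsewhere or unplaced (2.63%). In LIN28OE the same classes gave 0 of 9, 2 of 23 (8.70%), 11 of 109 (10.1%), 36 of 461 (7.81%) and 1109 of 15190 (7.30%). In both models the share at 2 to 10 Mb was thus the highest among the classes of other genes. Of the 8 genes called at that distance in let7KO, 1 was raised and 7 were lowered. On the rest of chromosome 13, 16 of the 21 called genes were lowered, and over all genes tested 253 of 423.

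**Figure D4:**
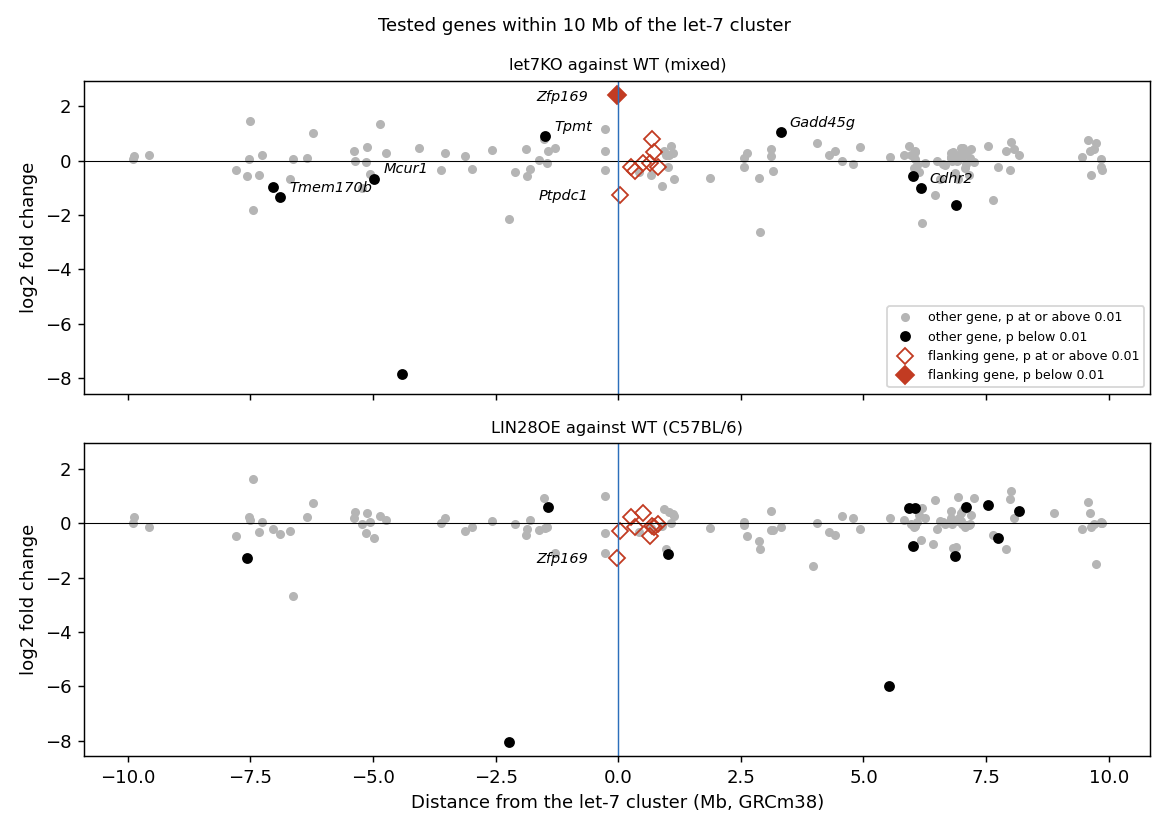
log2 fold change of the tested genes within 10 Mb of the let-7 cluster against their distance in Mb, for let7KO (top) and LIN28OE (bottom), with flanking genes as diamonds and filled symbols for p below 0.01 in edgeR. Zfp169 at 2.41 is the highest point in the top panel and lies at -1.27 in the bottom panel; the lowest points are Gm5083 at -7.85 (top), and Stmnd1 at -8.05 and Drd1a at -5.99 (bottom).

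The called gene within 2 Mb was Tpmt, thiopurine methyltransferase, 1.49 Mb from the cluster on the side of Zfp169. Tpmt was at 140, 155 and 162 CPM in let7KO and at 94.6, 84.2 and 63.6 CPM in WT (mixed), without overlap. Its log2 fold change was 0.90 (SE 0.192, adjusted p = 0.304, edgeR's quasi-likelihood test). In LIN28OE it was -0.17 (SE 0.216), and the difference between the models was 1.08 (SE 0.292, adjusted p = 0.43). The unadjusted p of that difference was below 0.01, where 1.55% of all genes tested were called. Tpmt was named for its p in let7KO, and the same kidneys enter the difference, so it is not independent of that choice. Tpmt was also 0.51 higher in WT (mixed) than in WT (C57BL/6) (SE 0.191, adjusted p = 0.299). The genes called within 2 Mb in LIN28OE, named after their values were seen, were Aspn at -1.13 and Dek at 0.58 on the log2 scale, which stood at -0.23 and 0.38 in let7KO.

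Outside the flanking genes and Tpmt, the smallest p values within 10 Mb in let7KO belonged to Cdhr2, Gadd45g, Mcur1 and Tmem170b, at 6.16, 3.31, -4.98 and -6.89 Mb. Gadd45g, a stress-inducible growth arrest gene, rose with a log2 fold change of 1.06 (SE 0.260), from 16.5 to 24.1 CPM in WT to 33.2 to 51.5 CPM. Cdhr2, a cadherin of the brush border, fell by 1.02 (SE 0.237), from 58.9 to 90.0 CPM in WT to 32.3 to 45.4 CPM. Mcur1, a regulator of mitochondrial calcium uptake, fell by 0.67 (SE 0.165), and Tmem170b fell by 1.34 (SE 0.335). All 4 had an unadjusted p below 0.01, and their adjusted p ran from 0.345 to 0.362 in edgeR's quasi-likelihood test. The difference between the models had an unadjusted p below 0.01 for Gadd45g, at 1.22 (SE 0.381), where 1.55% of all genes tested were called. It did not for Cdhr2, Mcur1 and Tmem170b, at -0.38 (SE 0.349), -0.10 (SE 0.236) and -0.92 (SE 0.508). All 4 were named for their p in let7KO, and the same kidneys enter the difference, so it is not independent of that choice. Cdhr2 and Mcur1 also differed between the WT groups, where they were 1.09 and 0.55 higher in WT (mixed) on the log2 scale (adjusted p = 0.0905 and 0.0894). Gadd45g had a log2 difference of -0.67 between them (adjusted p = 0.226), with an unadjusted p above 0.01 and all 3 WT (mixed) kidneys below all WT (C57BL/6) kidneys.

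The nearest tested genes outside the set, 1 on each side of the cluster, had no call in let7KO. These were A330048O09Rik, 0.262 Mb away on the side of Zfp169, with a log2 fold change of 1.16 (SE 1.45, adjusted p = 0.816) at 0.559 to 3.37 CPM, and Fam120aos, 0.43 Mb away on the other side, with -0.41 (SE 0.224, adjusted p = 0.543).

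Family and pathway relatives of the flanking genes were also read. They include Klhl3, which lies on the same chromosome as the cluster, 9.46 Mb from it, and is also counted among the other genes by distance. Of 29 relatives listed by family or WNK signalling, 27 were tested, and 0 had p below 0.01 in let7KO by edgeR's quasi-likelihood test, where their median log2 fold change was -0.13. The share of all genes tested was 2.73%. At p below 0.05 it was 1 of 27 (10.8% of all genes), and DESeq2 gave 1 at 0.01 (5.45%) and 2 at 0.05 (12.8%). In LIN28OE 5 fell and 0 rose at p below 0.01, with a median of -0.07, where 4.08% of all genes tested fell. These 5 were the WNK kinase gene Wnk4 (-0.64), the cotransporter genes of the thick limb and distal tubule Slc12a1 (-0.98) and Slc12a3 (-1.95), and the sushi domain genes Susd2 (-1.01) and Susd6 (-1.06, counted under its older name 4933426M11Rik). Of these, Slc12a3 passed the correction over all genes (adjusted p = 0.000938, edgeR's quasi-likelihood test). Slc12a1 and Slc12a3 are also among the 11 kidney tissue markers, of which 5 fell and 0 rose at p below 0.01 in LIN28OE. The fall of these 2 genes is thus not particular to the relatives.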

How the data were processed

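RNA from each of 12 whole kidneys was made into libraries with a SMARTer Ultra Low kit and sequenced on an Illumina HiSeq. The authors deposited raw read counts per gene symbol, 1 file per kidney. Their processing notes name cutadapt, TopHat2 2.0.9, Bowtie2, SAMtools 0.1.19, HTSeq and mm10. The annotation and the use of strand are not given in the sources used here. Reads of antisense partners (Phf2os1 and Gm36550 overlap Phf2 and Ptpdc1) are therefore not told apart.

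Groups and litters came from the sample labels. Each comparison was fitted on the deposited counts with edgeR 4.0.16 (R 4.3.3), with filterByExpr (minimum count 10, minimum total 15), TMM, the quasi-likelihood test and Benjamini-Hochberg adjustment over all genes tested. Each SE was derived from the fold change and its F statistic. The interaction used all 12 kidneys. CPM and RPKM levels were computed with TMM factors over all kidneys, and exon lengths and positions came from GENCODE M21 (GRCm38, the assembly of mm10). Of 24062 symbols, 22711 were placed by GENCODE, 1214 by RefSeq and 137 not at all. Scripts were tested on simulated data.

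Labels give a litter number, and kidneys with the same number within a model were taken to share a litter. Deviations from group means correlated on average at -0.029 within and 0.036 between litters in let7KO, and at -0.109 and 0.135 in LIN28OE. Such deviations cancel within a group, which ties the within and between values to each other. They are therefore no test of the litter numbers. The labels do not say whether kidneys of a litter came from separate animals, while the paper calls the 3 samples biological replicates. The p-values measure the spread between these 3 kidneys per group. The named genes were the 10 flanking genes, the deleted and label-check genes, the nearest tested gene on each side, other genes within 2 Mb with p below 0.01, relatives with p below 0.01, and the 5 genes with the smallest p within 10 Mb. The members and lists were chosen with earlier results of these data known. Alternatives were DESeq2 1.42.0, other normalizations, no filter, litter as a block, one fit of all kidneys, a Y-linked covariate, leaving out each kidney, other windows and, added after seeing the data, an exon length slope. Other marker lists (adrenal, red blood cell, leukocyte, skeletal muscle and neural) had 0 genes with p below 0.01 in either model, but few of their genes could be tested. In let7KO these were 2 of 5 adrenal, 1 of 5 red blood cell, 3 of 4 leukocyte, 1 of 3 skeletal muscle and 1 of 3 neural genes. No neural gene was tested in LIN28OE. Summed adrenal markers were at 4.38 to 5.33 CPM in LIN28OE and 2.89 to 3.41 CPM in its WT, and overlapped between let7KO and its WT.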

Additional observations from a re-analysis of the deposited data

How the results depend on the processing

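The Zfp169 difference in let7KO kept its direction under all 14 alternatives, with log2 fold changes of 1.92 to 2.68, and lost p below 0.01 in one fit of all 12 kidneys. With the litter number as a replicate block the value was 2.40 (adjusted p = 0.458), and that paired fit changed no call of a flanking gene at p below 0.01 in either model or in their difference. At p below 0.05 it lowered the count from 3 to 2 in let7KO, losing Susd3, and from 2 to 0 for the difference. The number of flanking genes with p below 0.01 in let7KO was 1, and it was 2 with DESeq2 or the exon length slope, 0 in one fit of all 12 kidneys and 1 to 2 when each kidney was left out in turn. In LIN28OE it was 0, and 1 with the Y-linked covariate or the exon length slope, Ninj1 both times, and 0 to 1 when kidneys were left out. For the difference between the models it was 0, and 1 with DESeq2 or without a filter on low counts, Zfp169 both times, and 0 to 1 when kidneys were left out. Between the WT groups it was 0, and 0 to 1 when kidneys were left out (Ninj1 without WT (mixed) replicate 3). The cause of these changes was not tested. Over all genes, 423 had p below 0.01 in let7KO, against 843 with DESeq2, 687 in one fit of all 12 kidneys, 278 with the exon length slope and 162 to 1296 when kidneys were left out (1296 without let7KO replicate 1); with the replicate block it was 288. In LIN28OE the 1158 genes ranged from 515 to 2509 (2509 without LIN28OE replicate 3). Other genes within 2 Mb called in let7KO numbered 1, and 0, 0 and 4 in windows of 0.5, 1 and 5 Mb. Without let7KO replicate 1 they numbered 3, and without replicate 3 they numbered 2.

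Several log2 fold changes near 0 changed sign. With the exon length slope Bicd2 in LIN28OE was 0.0873. Between the WT groups Fam120a was 0.0058 with DESeq2 and with RLE factors, and with upper-quartile factors Wnk2 was -0.0171 and Bicd2 -0.0159. When each kidney was left out in turn, let7KO values ranged from -0.35 to 0.0123 (Phf2), -0.65 to 0.41 (Wnk2), -0.24 to 0.15 (Ninj1) and -0.19 to 1.04 (Fgd3). With the exon length slope Fgd3 stood at 2.03 and Wnk2 at -0.99 in let7KO, against 0.31 and -0.10. In LIN28OE they ranged from -0.19 to 0.0512 (Susd3), -2.09 to 1.05 (Fgd3) and -0.25 to 0.11 (Bicd2). For the difference between the models they ranged from -0.99 to 0.0825 (Wnk2), -0.73 to 2.44 (Fgd3) and -0.29 to 0.0343 (Bicd2). Between the WT groups they ranged from -0.0195 to 1.07 (Zfp169), -0.15 to 0.60 (Ptpdc1), -0.0928 to 0.33 (Phf2), -0.0728 to 0.10 (Fam120a), -0.24 to 0.42 (Wnk2), -0.40 to 1.53 (Fgd3) and -0.0739 to 0.0678 (Bicd2). Barx1 was at 0 in 10 kidneys and the lowest Zfp169 value was 3 counts, so folds that rest on these values are not firm at this depth.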
